A study of Mus musculus with 41 samples.

Results

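Expression of 9 genes that set the balance between clotting and clot removal was examined in mouse mesothelioma cell lines and tumors. The genes are *Tfpi*, *Tfpi2*, *F3*, *Thbd*, *Procr*, *Plat*, *Plau*, *Plaur*, and *Serpine2*, 9 of the 27197 genes in the RNA count table. They were picked by name because the mesothelium regulates fibrin turnover and because *Tfpi* was much lower in BNC than in NC cell lines. The comparison of BNC with NC lines therefore chose the members, and for it their values are given as a description without a test.

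The RNA data comprise 15 libraries: 3 BNC lines (JB81, JB91, and JB97), 3 NC lines (JB84, JB87, and JB93), and 9 mesothelioma tumors. BNC stands for the genotype Bap1-/-;Nf2-/-;Cdkn2ab-/- and NC for Nf2-/-;Cdkn2ab-/-, so that loss of *Nf2* and *Cdkn2ab* is shared by all samples. The tumors arose in mice of mixed FVB, Bl6, and 129Ola background whose floxed alleles were recombined by adenoviral Cre under the ubiquitous CMV promoter. The mice were young at injection and were killed at signs of illness, which came sooner in BNC than in NC mice. For the *Cdkn2ab* mice the study describes *Ink4a* and *Ink4b* as lost in the germline and *p19Arf* as conditional. The virus was injected into the chest cavity under cyclosporine A, an immunosuppressant, so any cell the virus reached could recombine. Lines were grown out from pieces of such tumors in medium with fetal calf serum, EGF, and the glucocorticoid hydrocortisone. The labels list 5 BNC and 4 NC tumors for RNA, but which tumor library has which genotype was not resolved. The tumors therefore form 1 group by tissue, and no tumor is given a genotype.

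Several libraries stand apart. JB81 and JB91 were nearly alike, with 5 of 10511 genes differing more than 2-fold and a biological coefficient of variation of 0.0386, and so were JB84 and JB93 (8 of 10545 genes, 0.0578). Among the lines of 1 genotype JB97 and JB87 are thus the ones that differ, and the 3 lines of a genotype may not be 3 independent samples. Nothing in the labels says that replicates came from separate animals, so p-values measure only the spread between these libraries. Tumor library B1 had 8158740 counts, of which 24.7% lay in the ribosomal RNA gene *Gm42418*, whereas the other 14 libraries had between 12377675 and 23936922 counts. The column heads of all tumors open with 1 number and those of the lines with 2 other numbers, whose meaning the sources do not give, so that any batch they mark and tissue cannot be told apart. Of the targeted genes, *Bap1* was read at 37.5 to 42.7 CPM (counts relative to the library total, scaled by TMM) in BNC lines and at 56.2 to 61.0 CPM in NC lines. Mesothelial markers split the lines. Their summed level was 130 and 131 CPM in JB81 and JB91, 676 CPM in JB97, and 2137 to 3051 CPM in NC lines, and mesothelin (*Msln*) was at 0.212 and 0.428 CPM in JB81 and JB91 against 835 to 2041 CPM in NC lines. *Calb2* had at most 3 counts in every line, whereas *Wt1* was read at 72.9 to 127 CPM in all 6 lines.

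Coagulation starts when tissue factor, a membrane protein encoded by *F3*, binds factor VIIa and activates factor X, and tissue factor pathway inhibitor shuts this step down. Thrombin bound to thrombomodulin no longer makes fibrin but activates protein C, a reaction that the endothelial protein C receptor enhances. Fibrin is removed by plasmin, which the tissue-type and urokinase-type activators release from plasminogen and which serpins restrain by blocking the activators. Mesothelial cells carry out both sets of reactions on the pleural surface.

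All 9 genes lie on 7 chromosomes of the GRCm38 build, and none shares exon bases with another annotated gene. *Tfpi* (chr2:84432855-84476775), *Thbd* (chr2:148404466-148408188), and *Procr* (chr2:155751117-155755471) are on chromosome 2. *Tfpi2* is at chr6:3962595-3988919, *F3* at chr3:121723537-121735048, *Plat* at chr8:22757727-22782844, *Plau* at chr14:20836660-20843385, *Plaur* at chr7:24462484-24475968, and *Serpine2* at chr1:79794197-79861180. RefSeq start-site windows from 250 bases upstream to 50 bases downstream were at hand for 6 members (9 windows) and not for *Thbd*, *Plat*, and *Plau*. The windows of *F3*, *Procr*, and *Plaur* are printed because these genes peaked in the same tumor, as described below, and that of *Tfpi* because it is the gene the set was built on. Capitals mark matches on either strand to TGANTCA, the letters of the AP-1 motif.
F3, chr3:121723287-121723586, plus strand: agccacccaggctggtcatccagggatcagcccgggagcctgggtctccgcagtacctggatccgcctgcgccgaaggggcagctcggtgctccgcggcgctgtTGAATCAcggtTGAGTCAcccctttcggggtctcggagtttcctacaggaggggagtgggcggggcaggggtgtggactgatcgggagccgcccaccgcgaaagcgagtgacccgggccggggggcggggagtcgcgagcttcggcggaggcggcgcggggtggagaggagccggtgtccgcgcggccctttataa
Procr, chr2:155750967-155751266, plus strand: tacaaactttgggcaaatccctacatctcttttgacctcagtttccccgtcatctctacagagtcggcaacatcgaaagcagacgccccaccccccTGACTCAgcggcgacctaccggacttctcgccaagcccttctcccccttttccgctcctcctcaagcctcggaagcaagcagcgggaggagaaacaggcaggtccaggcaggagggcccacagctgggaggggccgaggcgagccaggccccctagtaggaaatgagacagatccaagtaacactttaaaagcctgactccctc
Plaur, chr7:24462233-24462532, plus strand: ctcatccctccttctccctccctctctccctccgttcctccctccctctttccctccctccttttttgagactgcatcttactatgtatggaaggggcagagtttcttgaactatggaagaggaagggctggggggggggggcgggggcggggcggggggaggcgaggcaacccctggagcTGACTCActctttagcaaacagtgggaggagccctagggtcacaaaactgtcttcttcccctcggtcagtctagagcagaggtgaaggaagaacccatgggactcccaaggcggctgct
Tfpi, chr2:84476710-84477009, minus strand: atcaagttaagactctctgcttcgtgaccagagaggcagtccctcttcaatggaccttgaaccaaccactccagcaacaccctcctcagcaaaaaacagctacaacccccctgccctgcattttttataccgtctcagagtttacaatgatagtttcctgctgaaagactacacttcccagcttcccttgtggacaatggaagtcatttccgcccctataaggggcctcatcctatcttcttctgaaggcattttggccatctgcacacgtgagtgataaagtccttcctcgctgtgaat
The *F3* window held 2 matches, those of *Procr* and *Plaur* 1 each, and that of *Tfpi* 0. Across all 9 member windows 4 held a match, against 7.81% of the 32851 windows in the table. The window with a match that is not printed belongs to *Tfpi2*, a gene that was highest in tumor B28. *Tfpi2* has more than 1 window and some of these overlap, so the 9 windows are not separate units. The TEAD motif letters GGAATG were in 0 of the 9 member windows and in 14.66% of all windows, which says only that these letters are not in these windows. CpG dinucleotides numbered 41 in the window of *Serpine2*, 32 in that of *F3*, and 5 in the printed window of *Tfpi*, around a median of 7 over all windows.

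*Tfpi*, the main inhibitor of tissue factor, was low in BNC lines, high in NC lines, and present in every tumor. Among BNC lines JB81 had 1.44 CPM, JB91 had 1.37 CPM, and JB97 had 1.83 CPM, against 55.2 CPM in JB84, 77.0 CPM in JB87, and 50.4 CPM in JB93. The means were 1.55 ± 0.246 CPM (SD, n = 3) and 60.9 ± 14.2 CPM (SD, n = 3), a log2 fold change of -5.35 (SE 0.27) or 40.9-fold lower in BNC lines, and the groups did not overlap. The lowest tumor had 10.0 CPM (B1), the median tumor 26.8 CPM, and the highest 75.4 CPM (B28). Every tumor was thus above all BNC lines, and 6 of the 9 were below all NC lines. Against the mean of both line groups *Tfpi* was 4.06-fold higher in tumors (log2 fold change 2.02, SE 0.38), a value that averages unlike lines. Tumors were 25.7-fold above BNC lines alone. These folds rest on the low BNC values that chose the gene and are given without a test. Against NC lines alone the log2 fold change was -0.64 (SE 0.42, adjusted p = 0.224, by the quasi-likelihood method of edgeR after Benjamini-Hochberg correction). The median of all genes was 0.38 on the log2 scale in the comparison of tumors with both line groups and 0.27 without TMM scaling.

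*Tfpi2* encodes a related inhibitor that acts mainly on plasmin and other matrix-degrading proteases. It was at or under the detection floor in the lines, with 0 to 3 counts in each, and no fold change between lines is given. The tumors ranged from 1.29 CPM (B1) over a median of 3.85 CPM to 43.6 CPM in tumor 22 and 47.1 CPM in tumor B28, and each of the 9 tumors was above every line. Set against 3 counts in the shallowest line (0.229 CPM), the median tumor was at least 16.8-fold higher and tumor B28 at least 206-fold higher. No test is given because the gene passed the filter on low counts only through the tumors. The remaining 7 tumors did not exceed 8.25 CPM.

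*F3*, the initiator, did not follow its inhibitor. The BNC lines had 22.8, 22.9, and 44.2 CPM and the NC lines 19.8, 31.5, and 19.7 CPM, and the groups overlapped (log2 fold change 0.28, SE 0.34). Tumors spanned 1.55 to 166 CPM with a median of 6.63 CPM. Of the 9 tumors, 7 were below every line, while B2 with 72.2 CPM and B27 with 166 CPM were above every line. Library B2 also held lung epithelium RNA (3 markers summing to 44251 CPM, tumor median 0.967 CPM), whose part in its *F3* value was not tested. No difference between tumors and lines passed the threshold for this gene in edgeR (log2 fold change 0.25, SE 0.89, adjusted p = 0.822), and the sign turned without tumor B27 (-0.82) and in DESeq2 (-0.72). Per kilobase of exon, *F3* exceeded *Tfpi* in all 3 BNC lines, by 5.10, 5.18, and 5.71 on the log2 scale. It was slightly under *Tfpi* in the 3 NC lines, at -0.37, -0.18, and -0.24. In tumors this log2 ratio had a median of -1.07 and was above 0 in 3 of 9, namely 0.27 in B45, 2.20 in B2, and 2.67 in B27. The BNC lines therefore had the highest ratios of all 15 libraries, a pattern that follows from the *Tfpi* values that chose the set.

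**Figure D1:**
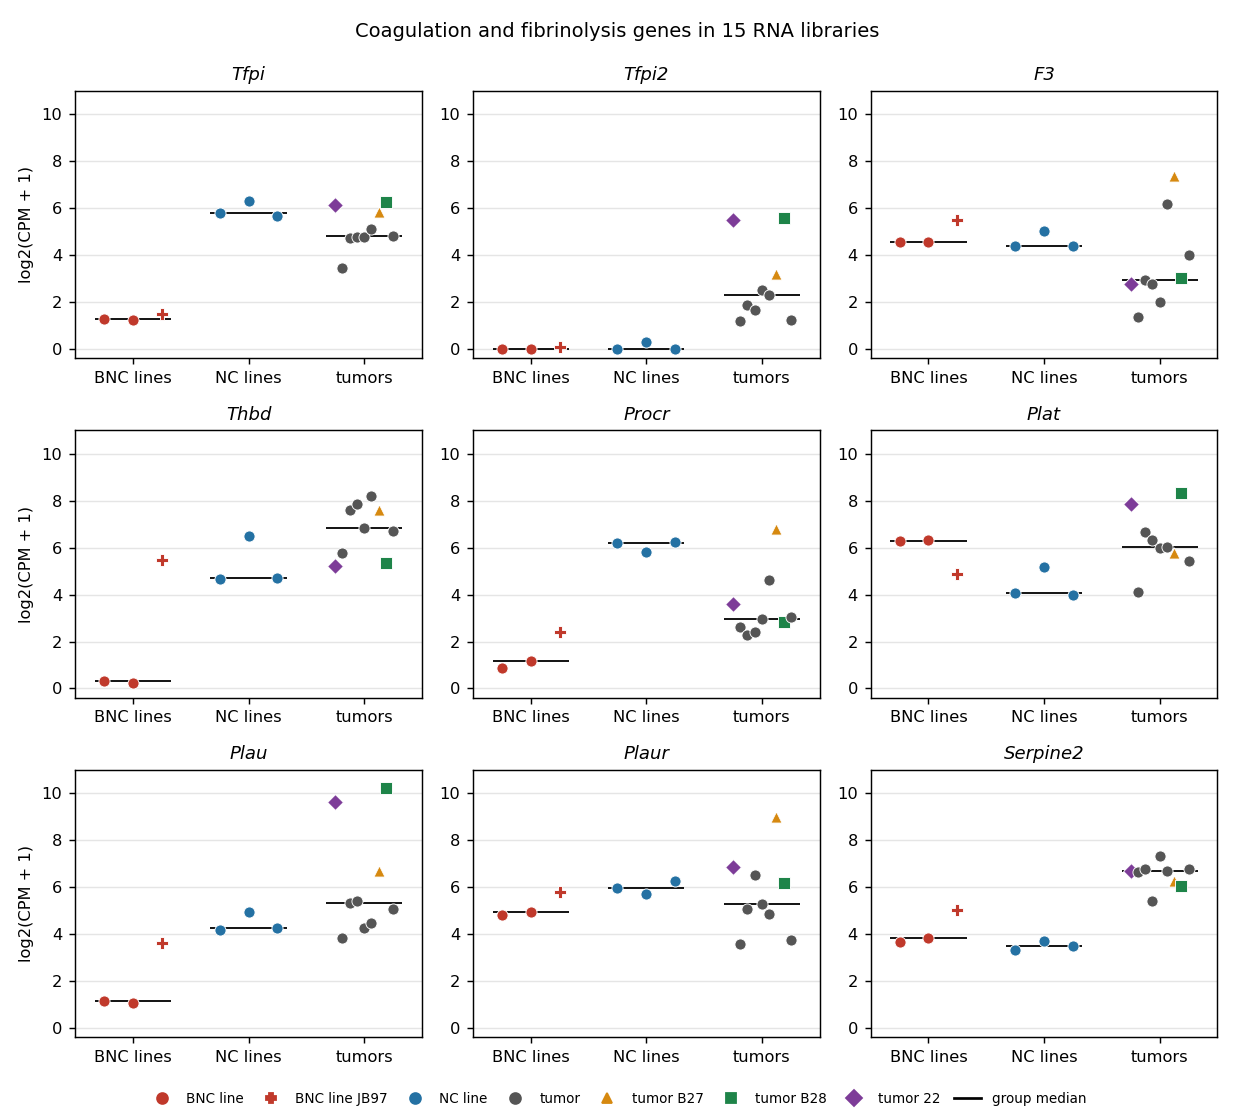
Expression of the 9 genes in 15 RNA libraries, as log2(CPM + 1) on the y axis; each point is 1 library and each line a group median (BNC lines n = 3, NC lines n = 3, tumors n = 9). Tumors 22 and B28 are the highest for Tfpi, Tfpi2, Plat, and Plau, tumor B27 for F3, Procr, and Plaur, and JB97 stands apart from the other BNC lines for Thbd and Plau.

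The genes of the protein C pathway split the lines in different ways. *Procr*, the endothelial protein C receptor, was read at 0.848, 1.24, and 4.26 CPM in JB81, JB91, and JB97, compared with 72.5, 56.0, and 75.9 CPM in JB84, JB87, and JB93. BNC lines were 33.8-fold lower (log2 fold change -5.08, SE 0.66), and the groups did not overlap. *Thbd*, encoding thrombomodulin, was nearly silent in JB81 (0.254 CPM) and JB91 (0.171 CPM) but stood at 44.1 CPM in JB97, inside the range of the NC lines (24.7, 90.02, and 25.3 CPM). Its log2 fold change of -1.74 (SE 1.84) became -7.77 without JB97, so that this line sets the value.

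In tumors *Thbd* ranged from 36.3 CPM (tumor 22) over a median of 114 CPM to 296 CPM (B2), and 6 of 9 tumors were above every line. Library B2 held the lung epithelium RNA described with *F3*, whose part in its *Thbd*, *Procr*, and cell type marker values was not tested. The difference from the lines did not pass the threshold used here, which was 2-fold change and 0.01 for the adjusted p-value (log2 fold change 2.42, SE 0.96, adjusted p = 0.0394, edgeR). It passed without JB97 and in DESeq2. *Procr* was at 3.83 to 23.8 CPM in 8 tumors and at 111 CPM in B27, with a tumor median of 6.77 CPM. Of the 9 tumors 1 was above every line and 8 lay between the BNC and the NC lines or overlapped the BNC lines, and the test against both line groups found a log2 fold change of 0.74 (SE 0.77, adjusted p = 0.42, edgeR) whose sign turned without B27 (-0.45), in DESeq2 (-0.29), and against NC lines alone (-1.78).

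Thrombomodulin and the protein C receptor are known from endothelium and, for thrombomodulin, also from myeloid cells, so the members were set against marker scores over the 9 tumors (mean log2(CPM + 1) of 10 endothelial and of 8 leukocyte genes). Of 18 correlations, 2 passed an adjusted p-value of 0.05. *Thbd* rose with the leukocyte score (Pearson r = 0.859, exact permutation p = 0.00458, adjusted p = 0.0412, exact two-sided permutation with n = 9), and Spearman's rho was 0.917 (exact permutation p = 0.00131, adjusted p = 0.0236). Without B2 and B28, the tumors farthest from the median score, r was 0.766 (exact permutation p = 0.0508, adjusted p = 0.457). *Thbd* was also read in NC lines (24.7 to 90.02 CPM), where leukocyte markers summed to at most 4.90 CPM. The tumors lowest for *Thbd*, 22 and B28, had *Msln* at 103 and 44.0 CPM, but B27 had 145 CPM of *Msln* with 192 CPM of *Thbd*. No mesothelial score was correlated, and the part of mesothelial cells was not tested. *Procr* rose with the endothelial score (r = 0.886, exact permutation p = 0.00402, adjusted p = 0.0412), but rho was 0.633 (exact permutation p = 0.076, adjusted p = 0.456). Without B2 and B27 r fell to 0.266 (exact permutation p = 0.558, adjusted p = 0.837), so the relation rests on these tumors. *F3* had r = 0.839 with the endothelial score (exact permutation p = 0.0119, adjusted p = 0.0712), which was -0.07 without the same tumors. Without TMM scaling this *F3* correlation passed (r = 0.929, exact permutation p = 0.00131, adjusted p = 0.00787), but rho did not (0.8, exact permutation p = 0.0138, adjusted p = 0.083). For *Tfpi* r was 0.07 with the endothelial and -0.30 with the leukocyte score.

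**Figure D2:**
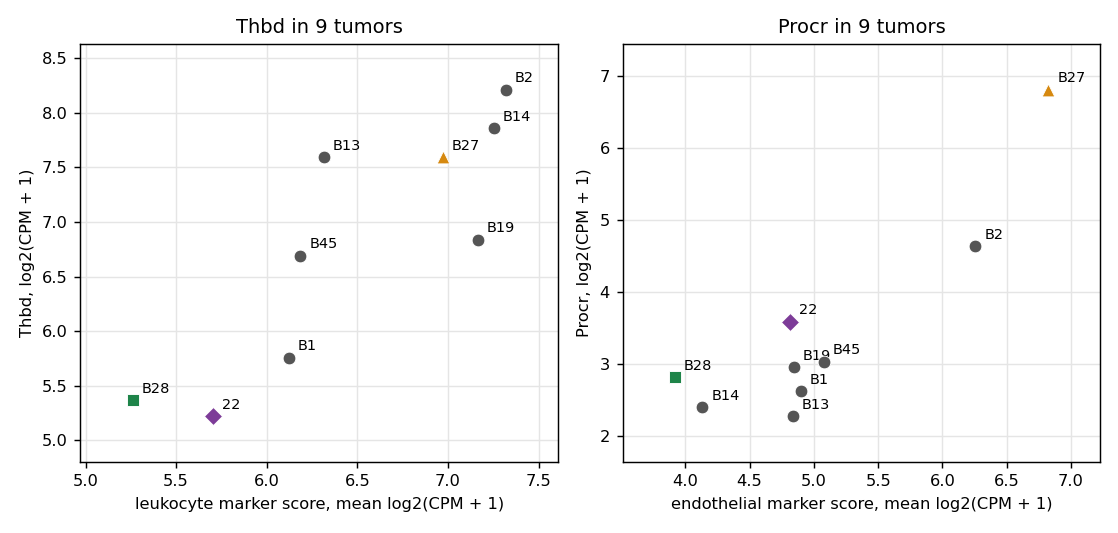
Thbd against the leukocyte marker score (left) and Procr against the endothelial marker score (right) in 9 tumors; both axes are log2(CPM + 1), averaged over the marker genes on the x axis, and each point is 1 tumor. Thbd tends to rise with the score, though not at each step (r = 0.859, or 0.766 without B2 and B28). The Procr relation (r = 0.886) falls to 0.266 without B2 and B27.

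These markers differ between the groups as a whole, and their part in the results was not tested. All 10 endothelial markers were detected in tumors, with a summed level of 220 to 1577 CPM, against 8.69 to 22.1 CPM in BNC lines and 56.5 to 98.8 CPM in NC lines, where *Pecam1*, *Cdh5*, *Tie1*, *Emcn*, *Erg*, and *Plvap* had at most 3 counts in every NC line. The NC signal came from *Kdr*, *Tek*, *Esam*, and *Egfl7*. All 8 leukocyte markers were detected in tumors (806 to 6191 CPM in sum), whereas the lines had 4.15 to 46.4 CPM and at most 3 counts of *Ptprc*, *Adgre1*, *Itgam*, and *Cd3e* in each. In tissue libraries, fewer cells of a type and less RNA per cell cannot be told apart.

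The plasminogen activators also varied among tumors, where the highest value was 89.4-fold above the lowest for *Plau* and 19.5-fold for *Plat*, beside 107-fold for *F3*. Library B1 was the lowest for each of these genes. Without it the spans were 65.4-fold for *Plau*, 7.55-fold for *Plat*, and 55.9-fold for *F3*. *Plau*, urokinase, had 1.23 CPM in JB81, 1.07 CPM in JB91, and a higher 11.2 CPM in JB97, while JB84, JB87, and JB93 had 17.4, 29.6, and 18.4 CPM. The groups did not overlap (log2 fold change -2.35, SE 0.97), and without JB97 the value was -4.27. Tumors ran from 13.4 CPM (B1) over a median of 38.9 CPM to 797 CPM in tumor 22 and 1197 CPM in tumor B28. The third-highest tumor, B27, had 104 CPM, so that 22 and B28 exceeded the other 7 tumors by 7.66-fold or more. Tumors were 25.3-fold above the lines (log2 fold change 4.66, SE 1.29, adjusted p = 0.00613, edgeR), and 6 of 9 were above every line. The low BNC values, from the comparison that chose the set, enter this line mean, so the call is not independent of that choice. The fold was 13.5 without B28, 49.0 without JB97, and 12.8 in DESeq2. The call was lost with the close line pairs summed (adjusted p = 0.0361, edgeR), when any line but JB97 was left out (adjusted p between 0.0166 and 0.0203), against BNC lines alone (0.0189), and against NC lines alone (0.0914).

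*Plat*, tissue-type plasminogen activator, had the opposite order in the lines. It was at 77.8 and 80.5 CPM in JB81 and JB91 but 28.2 CPM in JB97, compared with 15.6, 35.3, and 14.74 CPM in JB84, JB87, and JB93, with JB97 below JB87 (log2 fold change 1.46, SE 0.54). Genes of chromosome 8, where *Plat* lies, had a median log2 fold change of 0.41 between the lines (690 genes), and the part of this shift in the *Plat* value was not tested. In tumors *Plat* was again highest in B28 (322 CPM) and 22 (232 CPM), around a median of 63.6 CPM and a lowest value of 16.5 CPM in B1. The test against lines gave a log2 fold change of 1.56 (SE 0.56, adjusted p = 0.0256, edgeR), under the threshold, which it passed without B1 and in DESeq2. Per kilobase, urokinase made up 3.38% to 4.0% of the summed activators in JB81 and JB91, 51.2% in JB97, 68.9% to 76.7% in NC lines, and 43.6% to 90.7% in tumors.

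*Plaur*, which encodes the receptor that holds urokinase on the cell surface, was at 27.6, 29.9, and 54.2 CPM in BNC lines and 61.7, 51.4, and 76.1 CPM in NC lines, where JB97 exceeded JB87 (log2 fold change -0.82, SE 0.30). Tumors spanned 11.1 to 512 CPM with a median of 38.1 CPM. The highest value belonged to B27, followed by 114 CPM in tumor 22, and 2 of 9 tumors were below every line. No difference between tumors and lines passed the test (log2 fold change 1.06, SE 0.73, adjusted p = 0.224, edgeR), and without B27 the log2 fold change was 0.04.

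*Serpine2*, protease nexin-1, inhibits thrombin and both plasminogen activators. Over all 9 tumors it was the most even member, with 41.8 CPM in B14 as the lowest value and 162 CPM in B19 as the highest. The median was 101 CPM and the span 3.88-fold. Without library B1 *Tfpi* was more even, with a span of 2.99-fold against 3.88-fold for *Serpine2*. Muscle markers summed to 131 CPM in B14 and 32314 CPM in B19, the lowest and the highest library for them too, and their part in the *Serpine2* values was not tested. The lines had 11.8, 13.3, and 31.3 CPM (BNC) and 9.12, 11.99, and 10.4 CPM (NC), with overlapping groups (log2 fold change 0.78, SE 0.41). All 9 tumors were above all 6 lines, by 7.03-fold in the fit (log2 fold change 2.81, SE 0.33, adjusted p = 8.07e-06, edgeR), which is 2.44 above the median gene. This call held in each of the 23 alternative analyses, with a log2 fold change between 2.41 and 3.22.

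**Figure D3:**
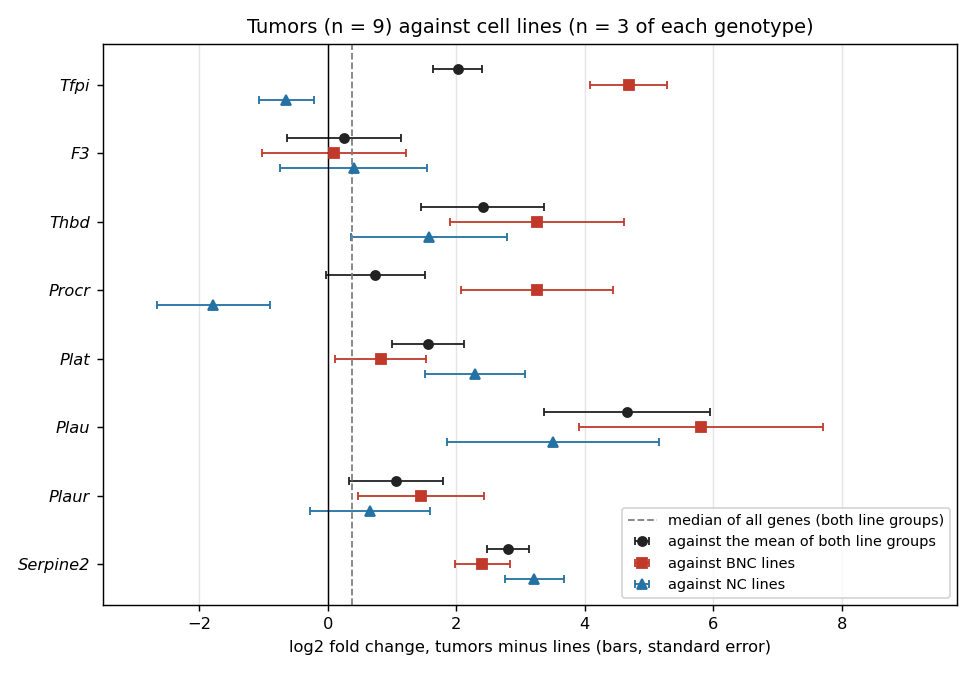
Log2 fold change of tumors (n = 9) over the mean of both line groups, over BNC lines (n = 3), and over NC lines (n = 3) for 8 members, with standard errors as bars; the dashed line is the median of all genes (0.38), and Tfpi2 is left out because the lines had at most 3 counts. Serpine2 is higher by 2.41 to 3.22 against either genotype, whereas Tfpi is at 4.69 over BNC lines and at -0.64 over NC lines.

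Counted over the set, the line groups did not overlap, with BNC lower, for *Tfpi*, *Procr*, and *Plau*, against 18.6% of the 12376 genes tested (42.3% when either direction counts). The one member past the call threshold was *Tfpi*, beside 0.654% of all genes lower in BNC lines. With the close line pairs summed, with either replicate block, with the leading number of the column heads as a covariate, or without JB81, JB91, JB84, or JB93, 0 members were past it. Nothing is read from these counts because the line values chose the set. In tumors against lines all 9 members were fitted and 4 were past the threshold as higher (*Tfpi*, *Tfpi2*, *Plau*, and *Serpine2*) and 0 as lower, where 28.2% of the 15675 genes tested were called higher and 11.5% lower (39.7% together). Of the 4, *Tfpi* was chosen for its low BNC values and *Tfpi2* passed the count filter only through the tumors. *Plau* was also low in BNC lines, and these values, from the comparison that chose the set, enter the line mean. Against NC lines alone *Plau* was not called (adjusted p = 0.0914, edgeR), whereas *Serpine2*, whose line groups overlapped, was. *Tfpi2* and *Serpine2* were higher in every tumor than in every line, as were 16.1% of all genes, and 0 members were lower in every tumor, as were 8.97% (25.1% together). The median log2 fold change of the members was 2.02, which is the value of *Tfpi* itself, beside 0.38 for all genes. Without B1, *Plat* was called as well.

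Across tumors the members fell into different orders. Tumors 22 and B28 were the highest pair for *Tfpi*, *Tfpi2*, *Plat*, and *Plau*, and B27 was the highest for *F3*, *Procr*, and *Plaur*. Libraries 22 and B28 were also alike over all genes, with 1675 of 12277 differing more than 2-fold and a biological coefficient of variation of 0.370. Among tumor pairs only B1 and B19 were closer (0.311), and all others were at 0.457 or above. The part of this general likeness in the shared ranks was not tested. B1, the library with the large ribosomal share, was the lowest for 6 members (*Tfpi*, *Tfpi2*, *F3*, *Plat*, *Plau*, and *Plaur*). Libraries 22 and B28 also had the lowest *Thbd* values, at 36.3 and 40.3 CPM. The protease-activated receptors showed the same pair on top. *F2r*, the main thrombin receptor PAR1, was at 690 CPM in B28 and 447 CPM in tumor 22, around a tumor median of 91.5 CPM, and *F2rl1* (PAR2), which trypsin-like proteases activate, was at 33.2 and 31.3 CPM around a median of 3.52 CPM. The thrombin receptor genes *F2rl2* and *F2rl3* were lower, with 9.70 and 17.4 CPM in B28 and 4.34 and 21.02 CPM in tumor 22, around medians of 0.773 and 0.763 CPM. *F2rl1* also separated the lines, with 0 to 1.27 CPM in BNC lines and 15.5 to 28.5 CPM in NC lines. In B27, *Serpinb2*, which encodes an inhibitor of urokinase (PAI-2), reached 330 CPM around a tumor median of 3.63 CPM. The 4 receptor genes and *Serpinb2* were singled out after their values had been seen.

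Per kilobase the order of the members also differed between groups. In NC lines *Procr* led with a median of 35.7 CPM per kb, followed by *Plaur* at 23.6 CPM per kb with an overlapping range. *Tfpi* (10.1), *F3* (7.84), *Plau* (7.77), and *Thbd* (6.799 CPM per kb) came next and did not differ beyond their ranges. In BNC lines *Plat* (12.5), *Plaur* (11.4), and *F3* (9.06 CPM per kb) led with overlapping ranges. In tumors *Thbd* led at 30.5 CPM per kb, and all neighbors in the order overlapped, down to *F3* at 2.62 and *Tfpi2* at 2.21 CPM per kb.

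The genes whose tumor values were most like those of *Tfpi* were *Ccng2* (Pearson r = 0.982), *Ets1* (0.976), *Cd164* (0.969), *Ctnnb1* (0.962), and *Azi2* (0.957), out of 15674 genes compared on log2(CPM + 1) over the 9 tumors. They were picked for this likeness, share their libraries and depth with *Tfpi*, and are given without a test.

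The rest of the pathway was read from fixed lists of 20 coagulation factors and receptors, 7 coagulation inhibitors, and 13 fibrinolysis genes, of which 39 were in the table and *Klkb1* was not analyzed here. Between the lines 14 were tested and 0 were called in either direction by edgeR, where 1.1% of all genes were called. At an unadjusted p under 0.05, 9 of the 14 passed in edgeR, as did 35.6% of all genes. DESeq2 tested 25 of the listed genes and called 5 higher and 5 lower, where it called 1996 of 13563 genes. The protein C cofactor gene *Pros1* was at 2.72 ± 1.22 CPM in BNC lines and 20.4 ± 7.64 CPM in NC lines (SD, n = 3 each; log2 fold change -2.97, SE 0.44, adjusted p = 0.0165, edgeR). *Serpind1*, encoding the thrombin inhibitor heparin cofactor II, was at 1.77 ± 0.437 CPM in BNC lines and at 0 counts in NC lines (SD, n = 3). Between the lines it passed the count filter only through the BNC lines, so no p-value is printed. The vitamin K-dependent carboxylase gene *Ggcx* had a log2 fold change of 1.07 (SE 0.16, adjusted p = 0.0161, edgeR) and *F8*, a cofactor of factor X activation, one of 2.58 (SE 0.51, adjusted p = 0.0297, edgeR). *Mrc2*, a collagen receptor that associates with the urokinase receptor, differed by 1.75 (SE 0.26, adjusted p = 0.0161, edgeR), and *Plgrkt*, a plasminogen receptor, by -2.09 (SE 0.32, adjusted p = 0.0167, edgeR). These p-values between the lines count JB81 and JB91, and JB84 and JB93, as separate samples although each pair was nearly alike. With the close line pairs summed, 0 of 12859 genes were called.

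In tumors against lines 32 of these genes were tested, 18 were called higher and 1 lower, where 28.2% of all genes were called higher and 11.5% lower. Of the 32, however, 18 passed the count filter only through the tumors, and 14 of the 18 calls were on such genes, for which no p-value is printed. Among all genes that passed only through the tumors 74.4% were called higher. The other 14 listed genes also passed the filter in the lines alone, and 4 were called higher (*Vkorc1*, *Pros1*, *Serpind1*, and *Plgrkt*) and 1 lower (*Anxa2*), against 15.9% and 14.5% of all such genes. Coagulation factors and receptors had 12 higher of 17 tested and 0 lower with a median log2 fold change of 7.05, but 1 higher of the 5 that passed in the lines, whose median was -0.32. *F13a1*, the catalytic subunit of the fibrin-stabilizing factor, had at most 4 counts in a line and was at 61.6 to 427 CPM in tumors, with a median of 203 CPM. *Vwf*, encoding the endothelial and platelet adhesive protein von Willebrand factor, was at 17.0 to 181 CPM, highest in B2. That library also held lung epithelium RNA, whose part in its *Vwf* value was not tested. Platelet markers summed to 24.2 to 105 CPM in tumors and 1.32 to 18.7 CPM in lines, and their part in these values was not tested. *F10*, the substrate of tissue factor with factor VIIa, had 0 counts in all lines and a tumor median of 5.98 CPM, at least 26.1-fold above the floor. Its highest value, 91.7 CPM, was in B27, the tumor with the highest *F3*. *F7* likewise had 0 counts in the lines, a tumor median of 1.66 CPM, and its highest value in B27 (13.8 CPM).

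*F5*, *F2*, *F9*, *F2rl2*, *F2rl3*, *Fgb*, and *Fgg* passed the filter only through the tumors as well, and their tumor medians were between 0.286 and 4.23 CPM. The vitamin K epoxide reductase gene *Vkorc1* was at 13.1 to 62.7 CPM in tumors and 4.09 to 10.3 CPM in lines (log2 fold change 2.07, SE 0.34, adjusted p = 0.00015, edgeR). The fibrinogen chains *Fgb* and *Fgg* reached 49.2 and 43.8 CPM in tumor 22, and no other tumor exceeded 6.08 CPM. In the same library the 4 hepatocyte markers summed to 452 CPM, where the median tumor had 4.43 CPM, and their part in the fibrinogen values was not tested.

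Of 4 coagulation inhibitors tested, the 2 that passed the filter in the lines were called higher. *Pros1* was at 31.7 to 157 CPM in tumors, above every line (log2 fold change 3.58, SE 0.36, adjusted p = 2.27e-06, edgeR), and was highest in tumors 22 (157 CPM) and B28 (152 CPM), as *Tfpi* was. *Serpind1* was at 0.231 to 56.1 CPM, highest in B14, and was not called against BNC lines alone (log2 fold change 2.80). It passed the filter in the lines only through the BNC lines. Because the 0 counts of the NC lines enter the line mean, no p-value is printed for its call. Of 11 fibrinolysis genes tested 4 were called higher and 1 lower, and of the 7 that passed in the lines 1 was called higher and 1 lower, with a median log2 fold change of -0.29. The broad protease inhibitor gene *A2m* had 0 counts in the lines and a tumor median of 2.08 CPM, at least 9.08-fold above the floor. *Kng1* and *Plg*, encoding kininogen and plasminogen, were highest in tumor 22 (19.6 and 12.9 CPM) with medians of 1.03 and 0.258 CPM. *Plgrkt* was called at a log2 fold change of 1.002 (SE 0.22, adjusted p = 0.00132, edgeR), which was -0.037 against NC lines alone, and the call was lost in 9 of the other alternative analyses. *Anxa2*, encoding a cell surface docking protein for plasminogen and its tissue-type activator, was the gene called lower (log2 fold change -1.04, SE 0.31, adjusted p = 0.00992, edgeR), at 421 to 1988 CPM in tumors and 1142 to 3691 CPM in lines. The call on *Anxa2* was lost in 19 of 23 alternative analyses, among them DESeq2 (log2 fold change -0.96) and the comparison with NC lines alone (-0.50).

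**Figure D4:**
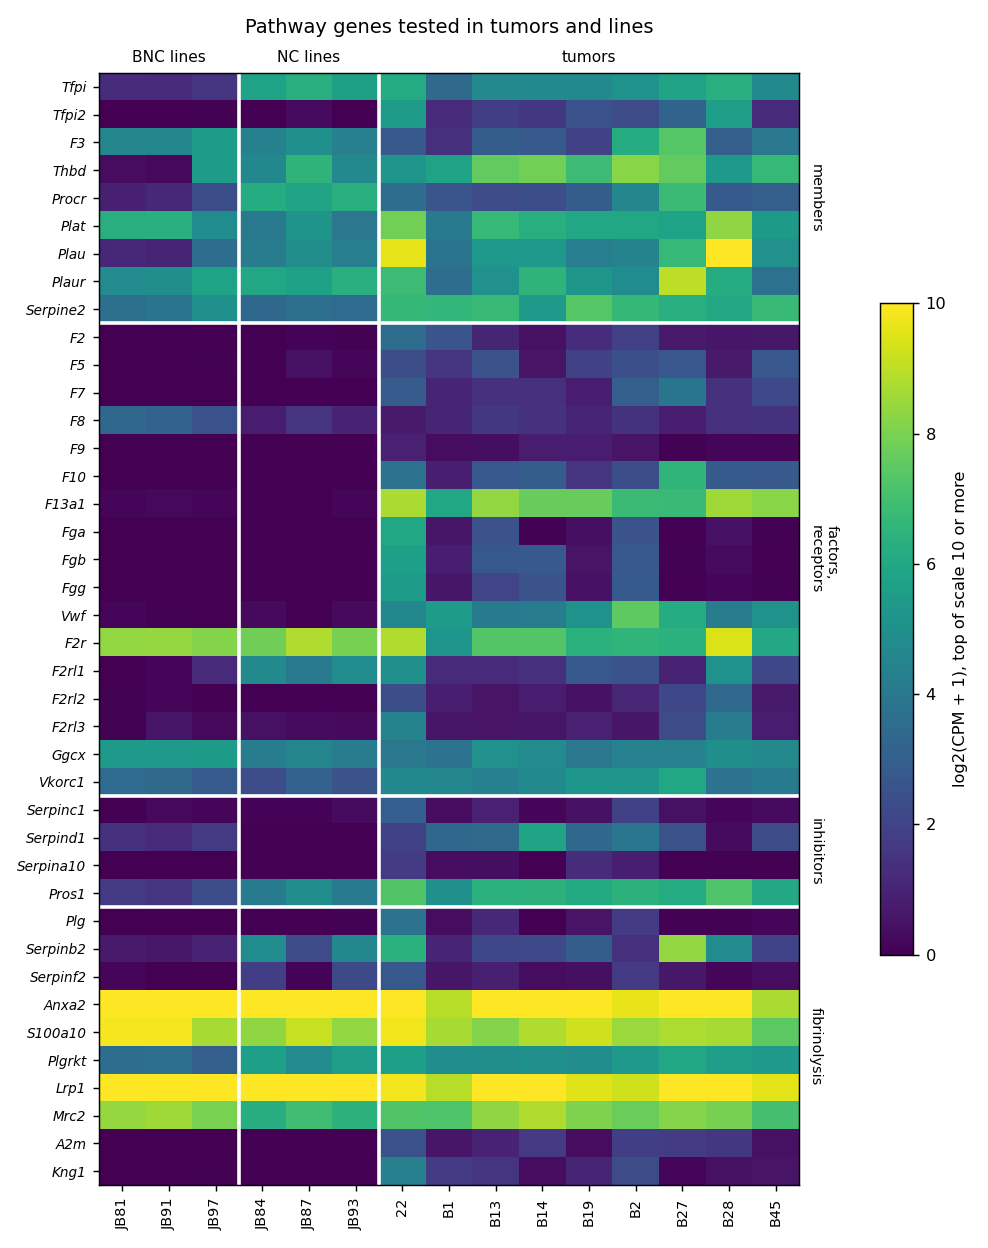
Expression of the 9 members and 31 other pathway genes tested in tumors and lines, as log2(CPM + 1) in color, with 1 column per library (3 BNC lines, 3 NC lines, 9 tumors) and 1 row per gene. Factors such as F13a1, Vwf, and F10 are at 4 counts or fewer in every line and higher in the tumors, though F10 had only 3 counts in B1. The fibrinogen chains stand out in tumor 22.

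DNA copy number was read at the same loci in 14 tumors from 13 animal numbers, 5 of which carry the same tumor number as an RNA library (B2, B13, B14, B19, and B28). The deposited values are named log2 read counts, in 20-kb bins. The study's methods describe log2 ratios of tumor DNA to normal tail DNA, and whether the deposited values are these ratios is not stated in the sources used here. At the members the median over tumors was between -0.08 (*F3*) and 0.04 (*Tfpi2*), and single tumors ranged from -0.49 (*Thbd* in B20, 1 bin) to 0.29 (*Tfpi* in B5), where the SD of single bins on autosomes was 0.15 to 0.23. At *Cdkn2a*, a targeted locus, the median was -0.35 and the lowest tumor -0.95. In B28, the tumor with the highest *Plau* RNA, the DNA value was -0.04 at *Plau*, -0.03 at *Plat*, and 0.15 at *Tfpi2*. Medians of the bins within 1 Mb were between -0.05 and 0.02 for all members.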

How the data were processed

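RNA sequencing was analyzed for 6 cell lines and 9 tumors. The authors deposited raw read counts for each Ensembl gene. Per their methods, single-end reads of poly-A libraries were mapped to mm10 with TopHat2 2.0.12 and counted with HTSeq. The strand setting is not given in the sources used here. The authors also deposited log2 DNA read counts per bin, read as a score because a placeholder marks missing values. Chromatin profiles were not analyzed here. Lines were assigned by the line names the study lists with each genotype, and tumors as 1 group. The number of unused columns of per-sample values was 0.

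Counts were tested in R 4.3.3 with edgeR 4.0.16 (filterByExpr with a minimum count of 10, TMM, glmQLFit and glmQLFTest). A call needed a change over 2-fold and, after Benjamini-Hochberg correction, an adjusted p-value under 0.01. The lines were fitted alone, and tumors against the mean of both line groups in a fit of 15 libraries. SE is the log2 fold change divided by the square root of F. CPM values are TMM-scaled over 15 libraries. Fold changes against lines with at most 3 counts are lower bounds. The scripts were tested on simulated data. Correlations used exact permutation over 9 tumors (SciPy 1.17.1). Positions are from GENCODE M21 (GRCm38) and start-site windows from RefSeq (GRCm38.p6). Alternatives were DESeq2 1.42.0, library size without TMM, other filters and thresholds, the replicate block, the leading number of the column heads as a covariate, summed line pairs, each line genotype alone, and leaving out each library. Members and lists were chosen with earlier results of these data known. Named are the 9 members, other list genes that were called or had the 2 smallest p-values of their list, the 5 genes most like *Tfpi*, and the targeted genes. The values of 1 listed gene are not reported here.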

Additional observations from a re-analysis of the deposited data

Results flagged for a closer look

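Dixon's criterion was applied to log2(CPM + 1) of 31 named pathway genes over the 9 tumors, and chance alone marks about 1 in 20 groups. None of the 9 members had a tumor past the critical value of 0.493 by this criterion. For 2 other genes the tumor 22 lay far from the rest. *Fgb* was at 5.65 on this scale in tumor 22 (49.2 CPM, next tumor 6.01 CPM), with a gap of 0.503 of the whole range. *Plg* was at 3.79 (12.9 CPM, next tumor 2.38 CPM), with a gap of 0.536 of the range. Hepatocyte markers summed to 452 CPM in this library, and their part in these values was not tested.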

How the results depend on the processing

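Between BNC and NC lines the number of genes called by edgeR moved from 136 to 1996 in DESeq2, 83 with at least 10 counts in every sample, 1436 at an adjusted p-value under 0.05, 0 with the close line pairs summed (1508 at an unadjusted p under 0.05), and 1 with the leading number of the column head as a covariate, and to between 0 and 2574 when 1 line was left out. With a replicate block from the study's line numbers it was 0 (2146 at an unadjusted p under 0.05), and 0 with JB97 as number 3 (3756). The numbers did not pair the lines, since deviations of same-numbered lines correlated at 0.132, -0.0904, and 0.104, or -0.098 with JB97 as number 3. For tumors against lines the count moved from 6220 to 2796 with at least 10 counts in every sample and 4062 against NC lines alone, and lay between 5368 and 6488 with 1 library left out. Called members numbered 4, 2 against NC lines alone, and 3 to 5 with 1 library left out. Values that turned sign were *Tfpi* (-0.64), *Procr* (-1.78), and *Plgrkt* (-0.037) against NC lines alone, *F3* (-0.72) and *Procr* (-0.29) in DESeq2, and *F3* (-0.82) and *Procr* (-0.45) without tumor B27, where leaving out 1 library gave *F3* up to 0.47 and *Procr* up to 1.29. Correlations past the threshold fell from 2 to 0 without the 2 tumors farthest from the median score. Without TMM scaling the correlation of *F3* with the endothelial score passed as well (r = 0.929). The causes were not tested. Between tumors and lines no block was possible because their numbers are not shared, and the leading number was not fitted as a covariate there because it equals the tissue. The largest locus median of the DNA values was -0.08, or -0.05 within 1 Mb.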
